A study of Mus musculus with 3 samples.

Results

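Liver sinusoidal endothelial cells were found as a minority of the barcodes in single-cell RNA libraries of sorted mouse liver macrophages. A barcode, the sequence tag of 1 droplet, was counted as endothelial when it had at least 1000 UMIs (unique molecular identifiers, 1 per captured RNA molecule) and 300 genes. It also had at most 10% mitochondrial UMIs, less than 1% of its UMIs from the Kupffer genes Clec4f, Cd5l, C1qa, C1qb and C1qc, and at least 3 UMIs summed over Kdr, Clec4g, Ptprb, Gpr182, Egfl7 and Aqp1. This rule took 201 of the 9842 barcodes that passed the depth, gene and mitochondrial limits. The 3 libraries came from livers of male mice aged 8 weeks. The chow library came from 1 mouse on normal chow. The 3-day ethanol and 10-day ethanol libraries came from 1 mouse each, given a Lieber-DeCarli liquid diet that held 5% ethanol, for 3 or 10 days. Non-parenchymal cells were freed by perfusion and collagenase, and live cells high for F4/80 and intermediate for CD11b, a gate for Kupffer cells, were sorted and run on the 10x Genomics 3' v2 kit. The labels name no genotype, strain or liquid diet without ethanol. Ethanol therefore cannot be told apart from the change from chow to liquid diet, nor from differences between mice, sorts and libraries.

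Sinusoidal endothelial cells line the smallest vessels of the liver. They are perforated by fenestrae, lack a continuous basement membrane, and clear waste from the blood through scavenger receptors such as stabilins, mannose receptor and Fc gamma receptor IIb. They also signal to neighbouring hepatocytes and stellate cells through Wnt ligands, R-spondin 3 and BMP2, and their gene use changes along the path from portal to central vein. Retinoids stored in the stellate cells beside them give rise to retinoic acid, which the enzyme CYP26B1 breaks down.

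The endothelial barcodes numbered 39 of 2767 in chow, 96 of 4061 at 3-day ethanol and 66 of 3014 at 10-day ethanol. Their share of passing barcodes was 1.41% in chow (exact 95% binomial interval 1.00% to 1.92%), 2.36% at 3-day ethanol (1.92% to 2.88%) and 2.19% at 10-day ethanol (1.70% to 2.78%). The chow share was the lowest, and its interval overlapped that of 3-day ethanol narrowly and that of 10-day ethanol more widely. All intervals here cover counting error alone, because each group was 1 mouse and no test between groups was possible. The share follows what the gate let through and is not the share of these cells in the liver. With at most 5% mitochondrial UMIs the shares were 1.93% in chow, 3.04% at 3-day ethanol and 3.96% at 10-day ethanol, which puts 10-day ethanol above 3-day ethanol. The study states 3000 to 5000 cells per sample.

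The endothelial barcodes held 116672 UMIs in chow, 236844 at 3-day ethanol and 189528 at 10-day ethanol, with median depths of 2624, 2218.5 and 2180 UMIs in the same order. They had a median of 42, 30 and 36 UMIs of the marker genes in these libraries. The Kupffer genes made up 0.250%, 0.238% and 0.178% of their summed UMIs. In the free RNA of barcodes with 10 to 100 UMIs the Kupffer genes made up 2.21%, 2.01% and 1.58%. Free RNA of that make-up could thus be at most 11.3%, 11.8% and 11.3% of the endothelial UMIs. The rule kept only barcodes with less than 1% Kupffer genes, so these bounds were limited in advance and describe the chosen barcodes only. Just inside the marker limit, 5 endothelial barcodes had 3 to 5 marker UMIs. Just outside it, 5 barcodes low in Kupffer genes had 2. Beyond the Kupffer limit, 68 barcodes had 3 or more marker UMIs together with at least 1% Kupffer genes. These were 23 in chow, 23 at 3-day ethanol and 22 at 10-day ethanol, with median depths of 6654, 4581 and 4692.5 UMIs, and were not counted as endothelial. The libraries shared 13 to 20 passing barcodes per pair. A single endothelial barcode occurred in 2 libraries, with 16162 UMIs at 10-day ethanol and 1085 in chow.

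Some endothelial barcodes also held RNA of other cell types. These numbered 4 in chow, 8 at 3-day ethanol and 6 at 10-day ethanol, and they held 18.1%, 17.3% and 28.6% of the endothelial UMIs. A barcode was counted here when it had at least 3 UMIs of the stellate, T and NK, B and plasma, dendritic or neutrophil markers, or at least 20 UMIs of the MHC class II genes Cd74, H2-Aa, H2-Ab1 and H2-Eb1. The deepest endothelial barcode of every library was among them, with 9029 UMIs in chow, 10984 at 3-day ethanol and 20684 at 10-day ethanol, and with only 3 or 4 marker UMIs. Endothelial barcodes had medians of 15.1, 14.4 and 14.9 marker UMIs per 1000 UMIs, so the endothelial name is in doubt for these deepest barcodes. The chow one held 520 class II UMIs, and the 3-day and 10-day ethanol ones held 44 and 56 UMIs of T and NK markers. All stay in the main sums because the rule took them. All 5 barcodes with 3 to 5 marker UMIs also held RNA of other cell types. Whether the barcodes with other RNA were doublets was not tested. Values without them are given where leaving them out changed a printed call or the count of a printed list.

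**Figure D1:**
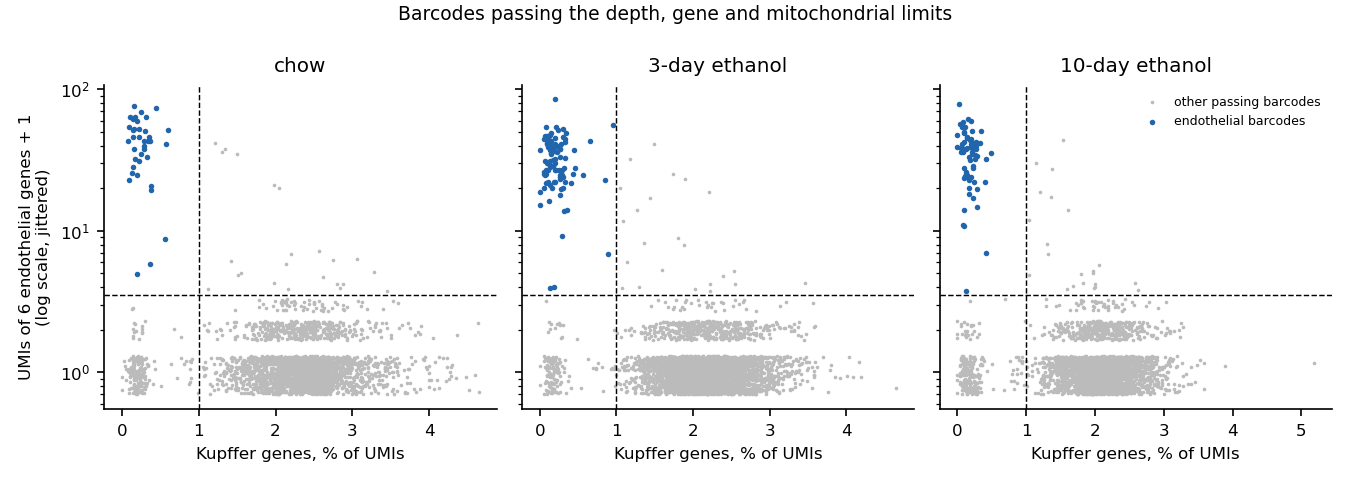
Each point is 1 of the 9842 passing barcodes, by the percent of its UMIs from 5 Kupffer genes (x axis) and its UMIs of 6 endothelial genes plus 1 on a log scale (y axis, jittered), in 1 panel per library. Dashed lines mark the limits of the rule. The 39, 96 and 66 endothelial barcodes (blue) lie at low Kupffer share because the rule cut on both axes. Beyond the Kupffer limit, 23, 23 and 22 barcodes also had 3 or more marker UMIs. Of these, 6, 9 and 7 had 10 or more.

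The endothelial label was checked with genes that the rule did not use, set beside the 9013 Kupffer barcodes of the same libraries (under 3 marker UMIs and at least 1% Kupffer genes). Because the rule separated the barcodes on this contrast, these values are descriptions. Of 1311 genes with at least 100 CPM (UMIs scaled to the same total in every sum) in the endothelial sums of every library, 316 were at least 2-fold higher than in Kupffer barcodes in every library, a background of 24.1%. Among 24 genes of sinusoidal endothelium the rule used 6, and 13 of the others were in that class. Of 24 genes of endothelium in general, none of them used by the rule, 19 were in that class. Igfbp7, which encodes a secreted matrix protein of vessels, stood at 4508, 3141 and 3667 CPM in endothelial barcodes of the chow, 3-day and 10-day ethanol libraries, against 11.4, 10.7 and 9.63 CPM in Kupffer barcodes. Gpihbp1, which carries lipoprotein lipase across capillary endothelium, stood at 3291, 2736 and 2200 CPM, against 7.85, 7.55 and 8.86 CPM in Kupffer barcodes. Both were thus far apart from the Kupffer values in all 3 libraries. Coagulation factor VIII, which sinusoidal endothelium makes, was represented by F8 at 497, 549 and 380 CPM in endothelial barcodes and at most 0.934 CPM in Kupffer barcodes. Gata4, a transcription factor of sinusoidal identity, had 24, 39 and 34 UMIs in the endothelial barcodes of the 3 libraries.

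Each of the 6 marker genes had a UMI in 85.3% to 100% of the barcodes chosen by the other 5, a description only, since the rule used all 6. The lymphatic markers Prox1, Pdpn, Ccl21a and Mmrn1 had 1 UMI in all 3 libraries together. Vwf, the clotting protein stored by endothelium of larger vessels, had 0, 6 and 6 UMIs, and the adhesion molecule gene Selp had none. Both are on a list of 12 genes of larger vessels, which summed to 694, 1199 and 1045 CPM in endothelial barcodes of the chow, 3-day and 10-day ethanol libraries. Ly6a, Plvap and Gja4 were the 3 genes of that list with enough UMIs to be compared between libraries. Not every sinusoidal gene set these barcodes apart from Kupffer cells. Mrc1, the mannose receptor gene, stood at 1269, 1465 and 1303 CPM in endothelial barcodes and at 863, 1327 and 1403 CPM in Kupffer barcodes. Clec1b, a lectin receptor gene, stood at 309, 545 and 227 CPM in endothelial barcodes and at 476, 530 and 451 CPM in Kupffer barcodes.

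**Figure D2:**
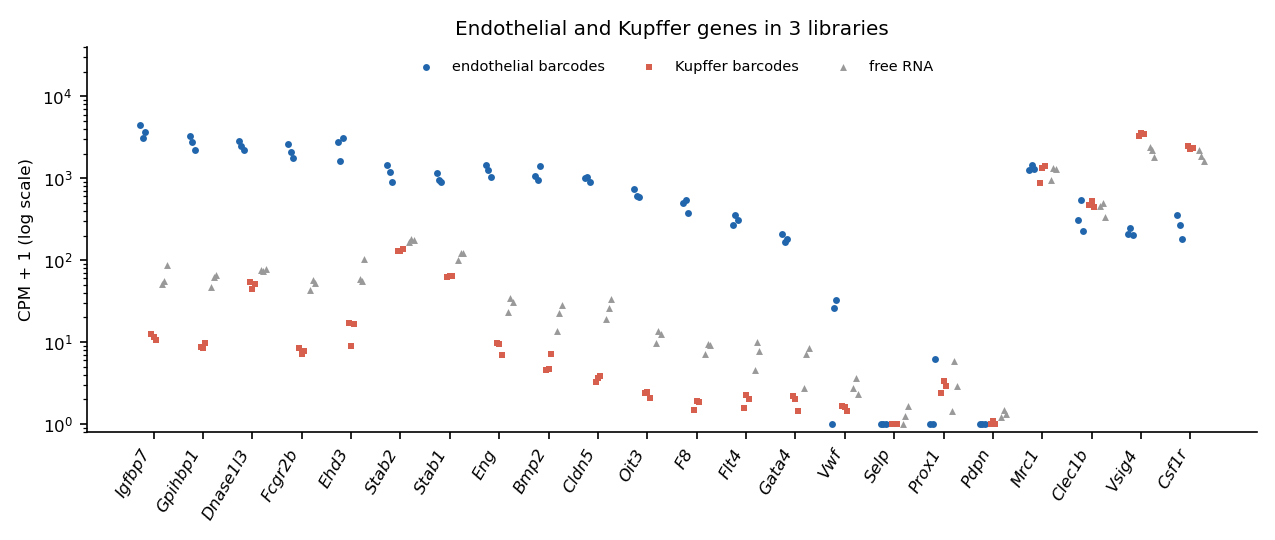
Level of each gene (CPM plus 1, log scale) in summed endothelial barcodes (blue circles), Kupffer barcodes (red squares) and free RNA (grey triangles), with 3 points each for the 3 libraries. Igfbp7 to Gata4 lie far above Kupffer barcodes, Selp, Prox1 and Pdpn lie at or near 0, Vwf is at 0 in chow and low at 3-day and 10-day ethanol, Mrc1 and Clec1b overlap Kupffer levels, and Vsig4 and Csf1r lie below them.

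The scavenging apparatus was present in all 3 libraries. Stab1 and Stab2, the stabilin genes whose products take up hyaluronan, modified lipoproteins and other waste, were both found in most barcodes. Stab2 had 168 UMIs in 36 of 39 barcodes in chow, 286 UMIs in 86 of 96 at 3-day ethanol and 169 UMIs in 57 of 66 at 10-day ethanol. Stab1 had 134, 224 and 171 UMIs in the same order. At the level of the endothelial sums, Stab2 was 0.619 times chow at 10-day ethanol (95% interval 0.497 to 0.771) and passed the 1.5-fold limit. Its ratio was 0.678 and did not pass when the barcodes with other RNA were left out. Fcgr2b, the Fc receptor that clears small immune complexes, was found in 39 of 39, 86 of 96 and 58 of 66 barcodes. Its ratio to chow was 0.795 at 3-day ethanol and 0.677 at 10-day ethanol, neither past the limit.

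Differences between libraries were taken from UMIs summed over the endothelial barcodes of each library. A gene was compared when it reached 100 CPM in 1 library of the pair. It was called higher or lower when its ratio was past 1.5-fold with 10 CPM added to both sides and its exact 95% interval excluded 1, and printed ratios have nothing added. At 3-day ethanol over chow, 123 of 2072 genes were higher (5.94%) and 172 lower (8.3%), and with median-of-ratios scaling, which shifts the log2 ratios by 0.07, 150 were higher and 131 lower. At 10-day ethanol over chow, 111 of 2087 genes were higher (5.32%) and 155 lower (7.43%). The lower genes numbered 103 once the barcodes with other RNA were left out. With totals that leave out mitochondrial, ribosomal, haemoglobin and hepatocyte genes, 132 were higher and 126 lower. At 10-day over 3-day ethanol, 134 of 2024 genes were higher (6.62%) and 128 lower (6.32%). The median log2 ratio over all compared genes was -0.07, -0.03 and 0.03 in these comparisons. In the Kupffer barcodes of the same libraries 2.65% of genes were higher and 0.678% lower at 3-day ethanol over chow, 4.59% higher and 1.93% lower at 10-day ethanol over chow, and 2.35% higher and 0.842% lower at 10-day over 3-day ethanol. The endothelial sums held far fewer UMIs, which widens their ratios, and the shares of the 2 cell classes were not compared further. Both ethanol libraries were set against the same chow library.

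**Figure D3:**
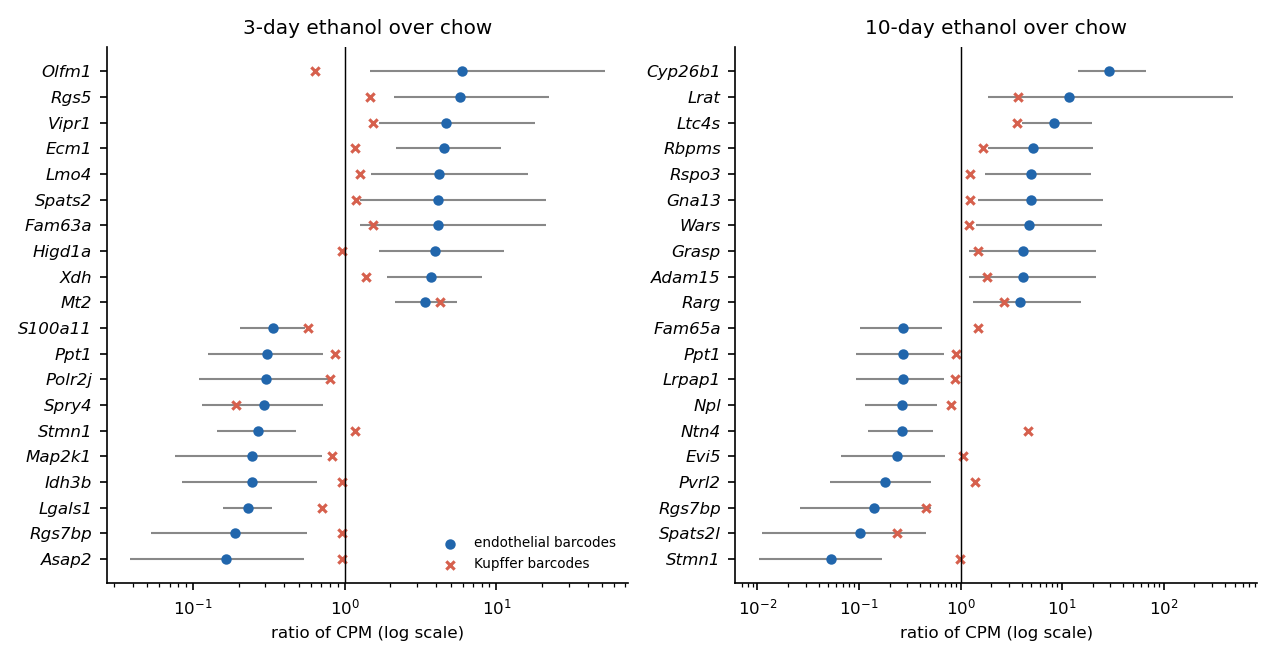
Ratio of CPM to chow (log scale) for the 10 highest and 10 lowest eligible genes at 3-day ethanol (left) and 10-day ethanol (right). Blue points are endothelial barcodes, grey lines their exact 95% intervals (counting error only), and red crosses Kupffer barcodes, left out where the ratio is 0 or undefined. Cyp26b1 stands highest at 10-day ethanol with a ratio of 28.8 and Stmn1 lowest with 0.0528.

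Of 216 genes eligible to be named at 10-day ethanol over chow, Cyp26b1 had the largest ratio. It had 8 UMIs in 8 of 39 endothelial barcodes in chow, 32 UMIs in 23 of 96 at 3-day ethanol and 374 UMIs in 63 of 66 at 10-day ethanol. These sums equal 68.6 CPM in chow (95% interval 29.6 to 135), 135 CPM at 3-day ethanol (92.4 to 191) and 1973 CPM at 10-day ethanol (1778 to 2184). The 10-day ethanol library stood alone, with nearly every endothelial barcode positive. Its level was 28.8 times that of chow (14.5 to 67.2) and 14.6 times that of 3-day ethanol (10.2 to 21.7). The ratio of 3-day ethanol to chow was 1.97 (0.889 to 4.95), and its interval included 1. Per barcode the median was 4.5 UMIs at 10-day ethanol with a highest value of 25, against a median of 0 and a highest value of 1 in chow. No single barcode carried the sum, since the richest held 6.68% of the UMIs at 10-day ethanol.

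Cyp26b1 was also looked for in the other barcodes of the same libraries. In Kupffer barcodes a UMI was found in 0 of 2514 in chow. With 3 barcodes taken as the limit for a count of 0, this allows a share of barcodes with a UMI of up to 0.119%. It sets no limit on cells that express the gene. A Cyp26b1 UMI was found in 16 of 3797 Kupffer barcodes at 3-day ethanol and in 105 of 2702 at 10-day ethanol (3.89%). Lymphocyte barcodes at 10-day ethanol had it in 5 of 156 (3.21%), at median depths of 3076.5 UMIs in Kupffer and 2453 in lymphocyte barcodes. The part of free RNA in these shares was not tested. Free RNA held 5.09, 6.26 and 75.1 CPM of it in the chow, 3-day and 10-day ethanol libraries. Barcodes with 3 or more marker UMIs and low Kupffer share that the depth or mitochondrial limits had left out were also richest at 10-day ethanol. Of those with over 10% mitochondrial UMIs, 1 of 6 in chow, 0 of 10 at 3-day ethanol and 17 of 18 at 10-day ethanol had a Cyp26b1 UMI. Of those with at least 300 but under 1000 UMIs, 0 of 5, 1 of 13 and 8 of 14 did. With every barcode thinned to 1000 UMIs, 15.4% of endothelial barcodes in chow, 13.5% at 3-day ethanol and 81.8% at 10-day ethanol had a UMI. Without the barcodes with other RNA the 10-day ethanol to chow ratio was 33.4 (16 to 83.8).

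**Figure D4:**
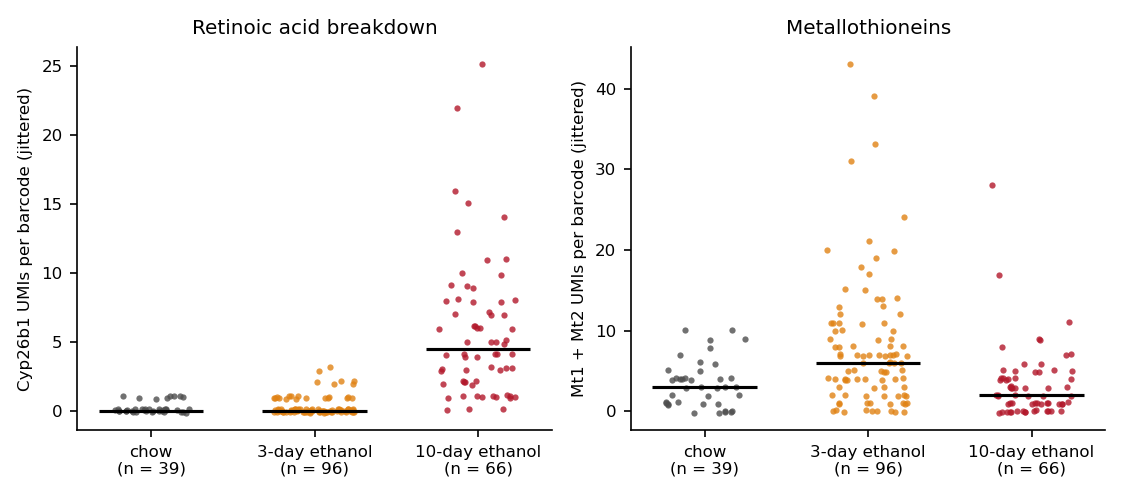
UMIs per endothelial barcode (jittered points) of Cyp26b1 (left) and of Mt1 and Mt2 together (right) in the 39 chow, 96 3-day ethanol and 66 10-day ethanol barcodes, with black lines at the medians. Cyp26b1 is at 0 or 1 in chow and at a median of 4.5 at 10-day ethanol. The metallothioneins have medians of 3, 6 and 2 UMIs and reach 43 at 3-day ethanol.

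Other genes of retinoid handling were measured at far lower counts. Of 16 genes on the retinoid list 6 were compared at 10-day ethanol over chow, and 4 of them were higher and none lower, with a median log2 ratio of 1.33. Cyp26b1 is itself among the 4. Of all genes compared there, 5.32% were higher and 7.43% lower. Dhrs3, whose product turns retinal back to retinol, had 19 UMIs in chow, 54 at 3-day ethanol and 60 at 10-day ethanol, a 10-day ethanol to chow ratio of 1.94 (1.14 to 3.45). Rarg, a retinoic acid receptor gene, had 4, 18 and 25 UMIs, in 4 of 39, 17 of 96 and 22 of 66 barcodes, and a ratio of 3.85 (1.33 to 15.2). Both stayed higher at 10-day ethanol without the barcodes with other RNA. Dhrs3 was at 63.0, 98.9 and 156 CPM in Kupffer barcodes, so its order there was the same. Lrat, which makes retinyl esters and marks stellate cells, had 1, 20 and 19 UMIs. Without the barcodes chosen in part by stellate markers it had 0, 6 and 5 UMIs and was no longer compared. Rarb, the receptor gene best known as induced by retinoic acid, had 4, 12 and 15 UMIs and stayed under the level for comparison. Without the barcodes with other RNA it had 2, 11 and 14 UMIs, was compared and was higher at 10-day ethanol over chow, with a ratio of 4.95 (1.14 to 44.8). Cyp26a1, Crabp1, Crabp2 and Stra6 had no UMI in any endothelial sum. At 3-day ethanol over chow only 2 genes of the list were compared and neither was called.

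The promoter windows of Cyp26b1 and Rarb are shown because the first gene differs most and the second carries a textbook retinoic acid response element. The windows run from 250 bases before to 50 after the annotated start, from RefSeq on GRCm38.p6. Capitals mark a direct repeat of the receptor hexamer, with 5 bases between, searched on both strands. The hexamer was AGGTCA in its common form. A variant starting with the same base, AGTTCA, was taken as a match. So was a variant starting with another base, GGGTCA, and likewise the last variant searched, GGTTCA. This repeat was in 0.0974% of 32851 promoter windows, and the same repeat with 2 bases between in 0.268%. The Rarb window (chr14:16575427-16575726, minus strand) holds the first. The Cyp26b1 window (chr6:84593761-84594060, minus strand) holds no repeat and no hexamer, which 43.7% of windows have. Windows of Rarg, Dhrs3 and Lrat were searched too and held neither repeat, and among them only a Rarg window held a hexamer. Cyp26b1 itself spans chr6:84571414-84593908 on the minus strand in GENCODE vM21.
Cyp26b1: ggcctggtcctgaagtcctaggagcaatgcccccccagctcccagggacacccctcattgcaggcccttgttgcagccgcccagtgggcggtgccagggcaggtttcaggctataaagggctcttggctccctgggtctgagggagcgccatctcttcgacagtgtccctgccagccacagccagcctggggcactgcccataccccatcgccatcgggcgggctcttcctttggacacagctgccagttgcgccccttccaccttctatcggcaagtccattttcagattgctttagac
Rarb: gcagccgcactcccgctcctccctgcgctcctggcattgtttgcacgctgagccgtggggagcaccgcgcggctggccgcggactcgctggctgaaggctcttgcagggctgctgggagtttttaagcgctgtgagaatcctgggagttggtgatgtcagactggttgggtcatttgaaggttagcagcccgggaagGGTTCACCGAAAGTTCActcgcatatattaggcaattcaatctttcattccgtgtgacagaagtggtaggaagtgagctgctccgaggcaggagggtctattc

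The metallothionein genes, whose small products bind zinc and copper, were highest at 3-day ethanol. Mt1 had 113 UMIs in 33 of 39 barcodes in chow, 620 UMIs in 86 of 96 at 3-day ethanol and 170 UMIs in 47 of 66 at 10-day ethanol. Mt2 had 22 UMIs in 13 barcodes, 150 UMIs in 57 and 47 UMIs in 32. For both genes the 3-day ethanol library stood above the other two. The 3-day ethanol to chow ratio was 2.70 for Mt1 (2.21 to 3.33) and 3.36 for Mt2 (2.14 to 5.52). At 10-day ethanol the ratios to chow were 0.926 (0.726 to 1.19) and 1.32 (0.777 to 2.29), neither called. Leaving out the barcodes with other RNA gave 3-day ethanol ratios of 2.81 and 3.46. Kupffer barcodes gave 3-day ethanol to chow ratios of 1.71 for Mt1 and 4.22 for Mt2, the second at too low a level to be compared. Free RNA held 152, 488 and 148 CPM of Mt1 in the chow, 3-day and 10-day ethanol libraries. Hepatocyte genes summed to 7846, 17124 and 7784 CPM in free RNA and to 1714, 1765 and 1055 CPM in endothelial barcodes. Mt1 is also a hepatocyte gene, and the part of free RNA in its ratio was not tested. Mt2 was scarcer than Mt1 in free RNA, at 5.54 CPM in chow and 45.7 CPM at 3-day ethanol. With free RNA subtracted from all sums, the log2 ratio of Mt2 at 3-day ethanol over chow was 1.70, as it was without the subtraction. This value is for Mt2 only. The subtraction was scaled by the Kupffer genes that the rule cut on, so its size was limited in advance. The part of free RNA in the Mt2 ratio was not tested either.

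The promoter windows of Mt1 and Mt2 are shown because these neighbouring genes moved together. Both genes lie on the plus strand of chromosome 8, Mt2 at 94172664 to 94173568 and Mt1 at 94179082 to 94180327. Capitals mark the core TGCACNC or TGCGCNC of the metal response element on either strand. The Mt1 window (chr8:94178839-94179138) holds 3 and the Mt2 window (chr8:94172368-94172667) holds 4. At least 1 core was in 25.7% and at least 3 in 1.97% of all windows.
Mt1: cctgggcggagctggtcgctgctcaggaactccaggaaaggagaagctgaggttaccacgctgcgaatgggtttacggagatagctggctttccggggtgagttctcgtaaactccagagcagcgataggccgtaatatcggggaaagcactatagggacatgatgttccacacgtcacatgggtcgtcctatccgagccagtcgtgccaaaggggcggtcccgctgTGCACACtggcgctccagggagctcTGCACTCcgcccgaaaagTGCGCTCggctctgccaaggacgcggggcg
Mt2: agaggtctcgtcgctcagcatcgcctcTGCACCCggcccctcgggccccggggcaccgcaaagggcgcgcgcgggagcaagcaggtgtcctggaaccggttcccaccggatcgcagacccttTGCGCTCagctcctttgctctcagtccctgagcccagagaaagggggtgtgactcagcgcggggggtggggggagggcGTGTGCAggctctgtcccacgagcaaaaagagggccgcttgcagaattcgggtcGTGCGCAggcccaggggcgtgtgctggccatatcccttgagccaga

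Some endothelial genes, picked from different lists, were higher at 3-day ethanol than in chow. On the list of endothelium in general 2 of 21 compared genes were higher and 3 lower. The scavenging list had 2 of 19 higher and 1 lower, and the endothelial transcription factor list 1 of 15 higher and 1 lower. For bone morphogenetic protein signalling 2 of 9 were higher and none lower. Over all compared genes 5.94% were higher and 8.3% lower. Lyve1, a hyaluronan receptor gene of sinusoidal and lymphatic endothelium, had 21 UMIs in 14 of 39 barcodes in chow, 108 UMIs in 48 of 96 at 3-day ethanol and 24 UMIs in 17 of 66 at 10-day ethanol. Its 3-day ethanol to chow ratio was 2.53 (1.58 to 4.26). Clec1b had 36, 129 and 43 UMIs and a ratio of 1.77 (1.21 to 2.63). The 3-day ethanol library was the high one for both genes, and at 10-day ethanol neither differed from chow past the limit. In Kupffer barcodes Lyve1 was at 1.38, 15.5 and 2.88 CPM, low throughout and with 3-day ethanol highest there too. Adgrf5, an adhesion receptor gene, had 76, 298 and 149 UMIs and a 3-day ethanol to chow ratio of 1.93 (1.5 to 2.52). S1pr1, a receptor for the lipid that keeps vessels tight, had 12, 51 and 17 UMIs and a ratio of 2.09 (1.10 to 4.31). Bmpr2, a receptor gene for bone morphogenetic proteins, had 20, 95 and 36 UMIs and a ratio of 2.34 (1.43 to 4). Ets2, Notch1 and Fabp4 were also higher at 3-day ethanol and not at 10-day ethanol, with ratios to chow of 2.04, 1.64 and 1.70. All of these kept their call without the barcodes with other RNA.

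Other endothelial genes were lower at 3-day ethanol. Ehd3, an endocytosis protein gene typical of sinusoidal endothelium, had 327 UMIs in chow, 389 at 3-day ethanol and 595 at 10-day ethanol. Relative to depth this was 2803, 1642 and 3139 CPM, lowest at 3-day ethanol. Its ratio was 0.586 at 3-day ethanol over chow (0.505 to 0.681) and 1.12 at 10-day ethanol over chow (0.977 to 1.29). Kupffer barcodes held it at 16.2, 8.02 and 15.8 CPM, lowest at 3-day ethanol too. Nrp1, Nrp2 and Plxna2, receptor genes for VEGF and semaphorins, had 3-day ethanol to chow ratios of 0.612, 0.640 and 0.467. They were the 3 lower genes among 8 compared on the VEGF and semaphorin list, with none higher and a list median of 0.01. Of all genes compared at 3-day ethanol over chow, 8.3% were lower. Sox18, a vascular transcription factor gene, had 48, 51 and 43 UMIs, and its ratio to chow was 0.523 (0.346 to 0.793) at 3-day ethanol and 0.551 (0.357 to 0.850) at 10-day ethanol. The 10-day ethanol call was lost without the barcodes with other RNA. On the sinusoidal list 2 of 16 genes were higher and 1 lower at 3-day ethanol, with a median log2 ratio of -0.09, and none was higher and 1 lower at 10-day ethanol, with a median of -0.28. The 1 lower gene at 10-day ethanol, Stab2, lost its call without the barcodes with other RNA, and the median was then -0.14. With all barcodes, the shares over all compared genes were 5.94% higher and 8.3% lower at 3-day ethanol. At 10-day ethanol they were 5.32% higher and 7.43% lower.

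The largest ratios at 3-day ethanol over chow came from genes with few UMIs in chow. Xdh, which encodes xanthine dehydrogenase, had 10 UMIs in 9 barcodes in chow, 75 UMIs in 49 at 3-day ethanol and 12 UMIs in 11 at 10-day ethanol. Its ratio was 3.69 (1.90 to 8.02), against 1.37 in Kupffer barcodes, which also held the gene at 103 to 142 CPM. Higd1a, a gene of a mitochondrial protein induced by low oxygen, had 6, 48 and 28 UMIs and a ratio of 3.94 (1.68 to 11.3). Olfm1 had 2, 24 and 14 UMIs and Lmo4, a transcriptional cofactor gene, 4, 34 and 21, with ratios of 5.91 (1.47 to 51.6) and 4.19 (1.49 to 16.2). Spats2 and Fam63a had ratios of 4.11 each. Rgs5, a gene of pericytes and stellate cells, Ecm1, which encodes an extracellular matrix protein, and Vipr1, a receptor gene for vasoactive intestinal peptide, had ratios of 5.79, 4.5 and 4.68. All 3 lost their call without the barcodes with other RNA.

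Lgals1, which encodes a galactose-binding lectin, was lowest at 3-day ethanol. It had 94 UMIs in 23 of 39 barcodes in chow, 44 UMIs in 31 of 96 at 3-day ethanol and 185 UMIs in 46 of 66 at 10-day ethanol. The ratio was 0.231 (0.157 to 0.333) at 3-day ethanol over chow and 5.25 (3.76 to 7.48) at 10-day over 3-day ethanol. S100a11, a calcium-binding protein gene, had 44, 30 and 34 UMIs and a 3-day ethanol to chow ratio of 0.336 (0.204 to 0.546). Stmn1, a microtubule regulator of dividing cells, had 35 UMIs in 7 barcodes in chow, 19 UMIs in 5 at 3-day ethanol and 3 UMIs in 2 at 10-day ethanol. Its values rest on few barcodes in every library. The other lower genes at 3-day ethanol were Asap2, Rgs7bp, Idh3b, Map2k1, Spry4, Ppt1 and Polr2j, with 12 to 16 UMIs in chow and ratios of 0.164 to 0.308. Of these, Ppt1 fell under the level for comparison without the barcodes with other RNA. Spry4 encodes a feedback inhibitor and Map2k1 a kinase of the growth factor pathway through ERK.

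At 10-day ethanol over chow, Ltc4s followed Cyp26b1. This gene of leukotriene C4 synthase had 8 UMIs in 6 of 39 barcodes in chow, 54 UMIs in 33 of 96 at 3-day ethanol and 108 UMIs in 34 of 66 at 10-day ethanol. Its levels were in the order of feeding time, at 68.6, 228 and 570 CPM. Its 10-day ethanol to chow ratio was 8.31 (4.07 to 19.7) in endothelial barcodes and 3.61 in Kupffer barcodes, where the gene was called higher too. Rbpms, an RNA-binding protein gene, had 4, 29 and 34 UMIs and a ratio of 5.23 (1.87 to 20.3). Gna13, a G protein subunit gene, Wars, which encodes a tRNA synthetase, Adam15, a metalloproteinase gene, and Grasp had 3 UMIs each in chow and 24, 23, 20 and 20 at 10-day ethanol. Their ratios were 4.92, 4.72, 4.10 and 4.10, with lower bounds of 1.22 to 1.5. Ltc4s and these 5 genes kept their call without the barcodes with other RNA. The lower genes at 10-day ethanol were Stmn1, Spats2l, Rgs7bp, Pvrl2, Ntn4, Evi5, Npl, Fam65a, Lrpap1 and Ppt1, with ratios of 0.0528 to 0.274. Fam65a and Ppt1 lost their call without the barcodes with other RNA. Pvrl2 encodes the adhesion molecule nectin 2 and had 17 UMIs in 15 of 39 barcodes in chow, 17 in 16 of 96 at 3-day ethanol and 5 in 5 of 66 at 10-day ethanol.

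Genes linked to vessels with a basement membrane gave a mixed picture. On a list of 16 genes of capillarization and matrix, 9 were compared in each comparison. At 3-day ethanol over chow 2 were higher and none lower, with a median log2 ratio of 0.07, and at 10-day ethanol over chow 3 were higher and none lower, with a median of 0.16. Of all compared genes 5.94% were higher and 8.3% lower at 3-day ethanol, and 5.32% and 7.43% at 10-day ethanol. Plvap, the diaphragm protein gene of fenestrated endothelium outside the adult liver sinusoid, had 8 UMIs in 8 barcodes in chow, 45 UMIs in 22 at 3-day ethanol and 42 UMIs in 21 at 10-day ethanol. Its ratio to chow was 2.77 (1.29 to 6.81) at 3-day ethanol and 3.23 (1.5 to 7.97) at 10-day ethanol. The first was lost without the barcodes with other RNA and the second was kept. Ly6a, also on the list, had 47, 201 and 120 UMIs, with ratios of 2.11 and 1.57. Plvap and Ly6a are on the list of larger vessels too, where 2 of 3 compared genes were higher and 1 lower at 3-day ethanol, with a median log2 ratio of 1.06, and 2 of 3 were higher and none lower at 10-day ethanol, with a median of 0.64. The lower gene was Gja4, which encodes a gap junction protein of arteries, with 20, 19 and 17 UMIs and a 3-day ethanol to chow ratio of 0.468 (0.236 to 0.924). Without the barcodes with other RNA, 1 gene was higher at 3-day ethanol on each of the 2 lists. Cd9, a tetraspanin gene, had 22, 56 and 91 UMIs and a 10-day ethanol to chow ratio of 2.55 (1.58 to 4.26). Collagen IV and perlecan genes, components of basement membrane, were not called. The ratios of Col4a1, Col4a2 and Hspg2 at 10-day ethanol over chow were 1.12, 0.645 and 1.26. On the adhesion list 1 of 10 compared genes was higher and 2 were lower at 3-day ethanol over chow. At 10-day ethanol over chow 1 of 9 was higher and none lower. The higher one was Jam2, a junction gene with 13, 61 and 54 UMIs. Its ratios to chow were 2.31 (1.26 to 4.59) at 3-day ethanol and 2.56 (1.38 to 5.11) at 10-day ethanol.

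Paracrine signals to the liver were found in all libraries. Bmp2, which drives hepcidin in hepatocytes and so limits iron uptake, had 125 UMIs in chow, 227 at 3-day ethanol and 271 at 10-day ethanol. Its 10-day ethanol to chow ratio was 1.33 (1.08 to 1.66), within the 1.5-fold limit. Wnt2, a ligand of the central zone, had 26, 60 and 47 UMIs, and its ratios to chow of 1.14 and 1.11 had intervals that included 1. Rspo3, which amplifies Wnt signals, had 4 UMIs in 2 barcodes in chow, 20 UMIs in 6 at 3-day ethanol and 32 UMIs in 7 at 10-day ethanol. Its 10-day ethanol to chow ratio was 4.92 (1.75 to 19.2) and rests on those few barcodes. It was 3.36 with the barcodes with other RNA left out, from 4 and 19 UMIs in chow and 10-day ethanol. Cxcl12, a chemokine gene also made by stellate cells, had 5, 52 and 15 UMIs. Only 1, 3 and 4 of these UMIs lay outside the barcodes with other RNA.

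Position along the sinusoid was read from genes known from mouse liver. The central genes Wnt2, Wnt9b, Rspo3, Kit and Cdh13 together had 73, 162 and 147 UMIs, or 626, 684 and 776 CPM in the chow, 3-day and 10-day ethanol libraries. The portal genes Efnb2, Dll4, Ltbp4, Ntn4 and Adam23 had 199, 325 and 191 UMIs, or 1706, 1372 and 1008 CPM. The portal sum was thus the larger in each library and lowest at 10-day ethanol. Both sets had a UMI in 19 of 39 barcodes in chow, 52 of 96 at 3-day ethanol and 40 of 66 at 10-day ethanol. Central genes alone were seen in 3, 3 and 7 barcodes, and portal genes alone in 14, 39 and 17. With barcodes thinned to 1000 UMIs, 12 of 39, 35 of 96 and 34 of 66 had a central UMI, 29 of 39, 76 of 96 and 45 of 66 had a portal one, and 8 of 39, 27 of 96 and 19 of 66 had both.

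Single portal genes differed in different libraries. Ntn4, a netrin gene, had 28 UMIs in 15 of 39 barcodes in chow, 47 UMIs in 32 of 96 at 3-day ethanol and 12 UMIs in 10 of 66 at 10-day ethanol. Its 10-day ethanol to chow ratio was 0.264 (0.122 to 0.536), and 0.385 without the barcodes with other RNA. Adam23 had 58, 128 and 50 UMIs and a ratio of 0.531 (0.356 to 0.788) at 10-day ethanol, which was 0.707 and not called without those barcodes. Ltbp4, a binding protein of latent TGF-beta, had 94, 113 and 104 UMIs and a ratio of 0.592 (0.446 to 0.787) at 3-day ethanol over chow. On the periportal list 1 of 5 genes was lower at 3-day ethanol and 2 of 6 at 10-day ethanol, and none higher. The medians were -0.27 and -0.73, and the shares of lower genes over all compared genes were 8.3% and 7.43%. Leaving out the barcodes with other RNA left 1 of 6 periportal genes lower at 10-day ethanol, with a median of -0.38. On the pericentral list 1 of 6 genes was higher at 3-day ethanol (Fabp4) and 1 of 7 at 10-day ethanol (Rspo3), and none lower. Their medians were 0.34 and 0.38, and the shares of higher genes over all compared genes were 5.94% and 5.32%. Each mouse gave 1 library, so fewer portal cells in the sort and less portal RNA per cell cannot be told apart.

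**Figure D5:**
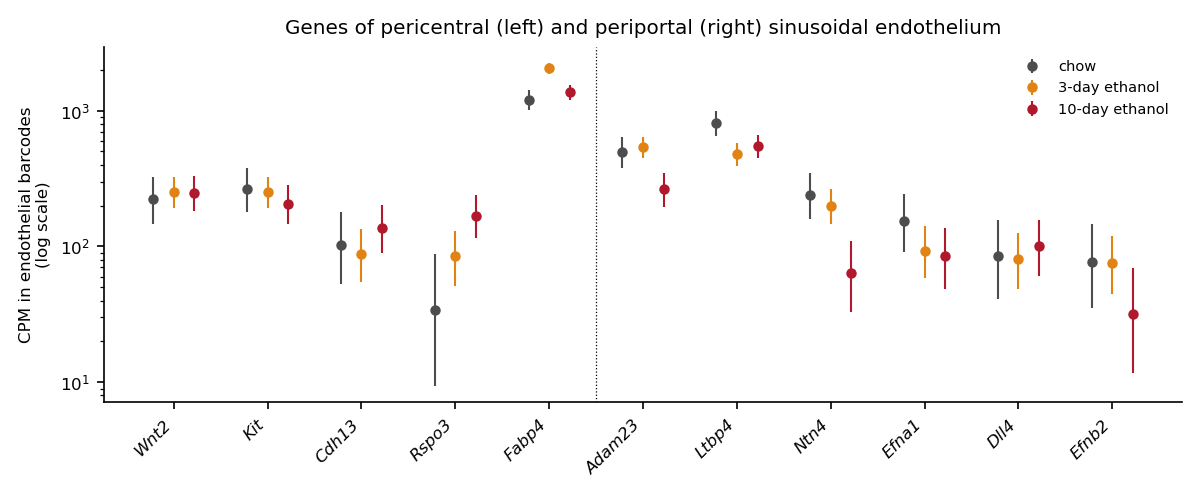
Level (CPM, log scale) in summed endothelial barcodes of 5 pericentral genes, left of the dotted line, and 6 periportal genes, right of it, in chow (grey), 3-day ethanol (orange) and 10-day ethanol (red), with exact 95% Poisson intervals. Ntn4 and Adam23 are lowest at 10-day ethanol, Ltbp4 is highest in chow, and Wnt2, Kit and Dll4 have overlapping intervals.

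On the list of the unfolded protein response, 6 of 10 compared genes were higher and none lower at 10-day over 3-day ethanol, with a median log2 ratio of 0.84, where 6.62% of all compared genes were higher. Hspa5, the main chaperone gene of the endoplasmic reticulum, had 29 UMIs in chow, 52 at 3-day ethanol and 87 at 10-day ethanol. Calr, which encodes the calcium-binding chaperone calreticulin, had 49, 57 and 93 UMIs. The 10-day to 3-day ethanol ratio was 2.09 (1.47 to 3.01) for Hspa5 and 2.04 (1.45 to 2.89) for Calr. Against chow, 3 of 10 genes were higher at 10-day ethanol, with a median of 0.23, and 3 of 8 were lower at 3-day ethanol, with a median of -0.13. The same shares over all compared genes were 5.32% and 8.3%. Without the barcodes with other RNA, 4 of 8 genes were higher at 10-day over 3-day ethanol, 2 of 8 were higher at 10-day ethanol over chow and 2 of 7 were lower at 3-day ethanol over chow. The same shares over all compared genes were then 6.24%, 4.04% and 7.41%. The call of Hspa5 against chow was then lost. In Kupffer barcodes Hspa5 was at 585, 516 and 654 CPM. On the heat shock list 1 of 6 genes was higher at 3-day ethanol and 3 of 6 at 10-day ethanol over chow, with medians of 0.15 and 0.63. Of all compared genes 5.94% and 5.32% were higher there. No higher heat shock gene kept its call without the barcodes with other RNA. Sgk1, a kinase gene induced by glucocorticoids, had 37, 78 and 138 UMIs and kept its 10-day ethanol to chow ratio of 2.30 (1.59 to 3.40).

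Of 15 compared genes of antigen presentation, 1 was higher and 9 were lower at 3-day ethanol over chow, with a median log2 ratio of -0.84. At 10-day ethanol none was higher and 4 lower, with a median of -0.49. The shares of lower genes over all compared genes were 8.3% at 3-day ethanol and 7.43% at 10-day ethanol. The class II genes Cd74, H2-Aa, H2-Ab1 and H2-Eb1 together had 705, 657 and 714 UMIs, of which 82.6%, 78.1% and 88.7% lay in the barcodes with other RNA. A single barcode held 520 of them in chow, 479 at 3-day ethanol and 609 at 10-day ethanol, against medians of 3, 2 and 1. Leaving out those barcodes, which were chosen in part by these genes, left 1 of 13 genes higher and 4 lower at 3-day ethanol, and none higher and 3 of 13 lower at 10-day ethanol. Of all compared genes 7.41% and 4.78% were then lower. Cd74, which encodes the class II invariant chain, then had 58, 64 and 36 UMIs and ratios to chow of 0.539 (0.372 to 0.782) at 3-day ethanol and 0.439 (0.281 to 0.676) at 10-day ethanol. Free RNA also carried class II, at 11844, 8349 and 5903 CPM in the chow, 3-day and 10-day ethanol libraries, against 1287, 735 and 599 CPM left in the endothelial barcodes. Its part in these ratios was not tested. Of the class I genes, H2-D1 had 314, 620 and 329 UMIs and a 10-day ethanol to chow ratio of 0.645 (0.551 to 0.755), and H2-K1 was not called. The ratio of H2-D1 was 0.674 and not called with the barcodes with other RNA left out.

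Interferon-response genes had a median log2 ratio of -0.31 at 3-day ethanol and -0.58 at 10-day ethanol over chow. None of 10 compared genes was higher in either, while 1 was lower at 3-day ethanol and 2 at 10-day ethanol, against 8.3% and 7.43% lower over all compared genes. With the barcodes with other RNA left out, 2 of 11 were lower at 3-day ethanol and 4 of 10 at 10-day ethanol, with medians of -0.35 and -0.63. The shares of lower genes over all compared genes were then 7.41% and 4.78%. Rtp4, a chaperone gene induced by interferon, had 23 UMIs in 11 of 39 barcodes in chow, 51 UMIs in 31 of 96 at 3-day ethanol and 8 UMIs in 8 of 66 at 10-day ethanol. Its level was lowest at 10-day ethanol, with a ratio to chow of 0.214 (0.0828 to 0.496). Ifitm3, which restricts virus entry, had 301, 452 and 298 UMIs and a 10-day ethanol to chow ratio of 0.609 (0.518 to 0.718). In Kupffer barcodes Rtp4 was at 214, 192 and 155 CPM.

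Of 33 compared nuclear genes of oxidative phosphorylation, 1 was higher and 3 lower at 3-day ethanol and 1 was higher and 4 lower at 10-day ethanol, with medians of -0.17 and 0.05. Over all compared genes 5.94% were higher and 8.3% lower at 3-day ethanol, and 5.32% higher and 7.43% lower at 10-day ethanol. Once the barcodes with other RNA were left out, none of 34 was higher and 3 were lower at 10-day ethanol. Hypoxia and glycolysis genes split at 3-day ethanol, with 4 of 7 lower and 1 higher and a median of -0.93. The lower ones were the glycolytic genes Gapdh, Ldha, Pkm and Aldoa, with ratios to chow of 0.493, 0.480, 0.578 and 0.508. Epas1, which encodes the oxygen-sensitive factor HIF-2 alpha, was the higher one, with 47, 151 and 73 UMIs and a ratio of 1.58 (1.13 to 2.25). Pkm and Aldoa lost their call without the barcodes with other RNA. Aldh2, which removes the acetaldehyde made from ethanol, was the only gene of ethanol metabolism with enough UMIs to be compared. It had 41, 100 and 97 UMIs and a 10-day ethanol to chow ratio of 1.46 (1.00 to 2.15), not called. It was called, with a ratio of 1.74 (1.14 to 2.72), when the barcodes with other RNA were left out. Hmox1, an oxidative stress gene, had 15, 63 and 51 UMIs and ratios to chow of 2.07 (1.16 to 3.91) and 2.09 (1.16 to 4.01). Kupffer barcodes held it at 1577, 2417 and 2708 CPM, also lowest in chow. The part of free RNA in the endothelial ratios of Hmox1 was not tested. Without the barcodes with other RNA only the 10-day ethanol call remained, with a ratio of 2.17.

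Between the 2 ethanol libraries, the genes highest at 10-day over 3-day ethanol were Cyp26b1, Lgals1, Mbd1, Btnl9 and Hipk2, and the lowest were Xdh, Rtp4, Hhex, Osmr and Lyve1. Btnl9, a butyrophilin-like gene, had 22 UMIs in chow, 15 at 3-day ethanol and 53 at 10-day ethanol, and a ratio of 4.42 (2.45 to 8.43). Mbd1 and Hipk2 had ratios of 6.25 (2.09 to 25.1) and 4.06 (1.79 to 10.4). The ratio of Lyve1 was 0.278 (0.171 to 0.435) and that of Xdh 0.200 (0.0989 to 0.370). Osmr, the oncostatin M receptor gene, had 3, 24 and 4 UMIs, and Hhex, a transcription factor gene, had 9, 24 and 4. Both had a ratio of 0.208 (0.0525 to 0.606). All 10 genes kept their call without the barcodes with other RNA.

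Markers of other cell types were summed over the endothelial barcodes. The barcodes with other RNA were chosen by several of these lists, which fixes that the other barcodes hold few of their UMIs. The 8 stellate markers summed to 189, 1013 and 385 CPM, led by Dcn with 10, 176 and 37 UMIs, of which 8, 173 and 34 lay in the barcodes with other RNA. The 8 T and NK markers summed to 25.7, 312 and 485 CPM. Platelet, cholangiocyte, B and plasma, dendritic and neutrophil lists each summed to at most 31.7 CPM in every library. The 12 Kupffer genes summed to 3334, 3230 and 2348 CPM in endothelial barcodes, against 32792, 31150 and 29980 CPM in Kupffer barcodes. The Kupffer gene Cd163 was higher at 3-day ethanol in endothelial barcodes, with 7, 34 and 6 UMIs, and in Kupffer barcodes, with 545, 1189 and 594 CPM. The endothelial call was lost without the barcodes with other RNA.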

How the data were processed

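Single-cell RNA libraries of sorted mouse liver cells were analysed from the deposited matrices of raw UMI counts per gene and barcode, 1 library and 1 mouse for each of chow, 3-day ethanol and 10-day ethanol. The authors made these counts with Cell Ranger 2.2.0 on GRCm38 (mm10), per the submitters' processing notes. The annotation release is not given in the sources used here. Of 28692 gene IDs, 28416 were matched to GENCODE vM21. The libraries held 21650747, 21471782 and 16538895 UMIs in chow, 3-day and 10-day ethanol.

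The members and the gene lists were chosen with earlier results of these data known. UMIs were summed over the barcodes of a class in each library and scaled to the class total. Ratios have exact conditional 95% intervals, levels exact Poisson intervals and shares exact Clopper-Pearson intervals, all for counting error only. UMIs, not reads, were counted, so copies made by PCR were not counted again. With 1 mouse per group no test between groups was made. Genes named in the text were the 10 highest and 10 lowest ratios to chow at each time, and the 5 highest and 5 lowest of 10-day over 3-day ethanol, plus members of the lists. Eligible genes reached 100 CPM in 1 library of the pair, had an interval that excluded 1 and a UMI in at least 10% of the endothelial barcodes of the higher library, where their CPM was at least the Kupffer CPM. Mitochondrial, ribosomal protein, immunoglobulin, provisional, hepatocyte and erythroid genes were left out.

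No doublet caller was used to remove barcodes. Scrublet, run through scanpy 1.11.5, marked 0 barcodes by its own threshold and so did not work here. The 4% of barcodes with its highest scores were left out as an alternative. Other alternatives changed the limits on depth, mitochondrial share, Kupffer share and marker UMIs, the scaling, the minimum level and the CPM added, or subtracted free RNA. Code was tested on simulated counts. Python 3.11.15, numpy 2.4.6, scipy 1.17.1 and pandas 2.3.3 were used. Promoter sequences are from RefSeq and matched 30 of 44 genes named by rank.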

Additional observations from a re-analysis of the deposited data

Results flagged for a closer look

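Among the genes named by rank or on the gene lists, 3 were called in opposite directions in endothelial and Kupffer barcodes of the same libraries. Other genes were not searched for this. The difference between the classes was not tested, since each group is 1 mouse. Ly6a, a surface protein gene, had a log2 ratio of 0.64 in endothelial barcodes and -1.26 in Kupffer barcodes at 10-day ethanol over chow. Cd36, a fatty acid receptor gene, had a log2 ratio of -0.67 in endothelial barcodes and 0.62 in Kupffer barcodes at 10-day over 3-day ethanol. Ccl6, a chemokine gene, had a log2 ratio of -1.05 in endothelial barcodes and 1.06 in Kupffer barcodes at 3-day ethanol over chow. At 10-day over 3-day ethanol its log2 ratios were 1.18 and -0.63 in the same classes. Ccl6 had 42, 40 and 75 UMIs in the endothelial barcodes of the chow, 3-day and 10-day ethanol libraries, of which 11, 32 and 11 lay outside the barcodes with other RNA. It was not called at 3-day ethanol over chow without those barcodes.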

How the results depend on the processing

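No paired analysis was possible because each group is 1 library and no result comes from a test. Of 96 values that answer a comparison, taken over all alternatives, 83 moved by less than their interval or 1.5 times and 13 moved further. These are shares and counts, which have no sign. With at least 2000 UMIs per barcode the endothelial share was 1.74% at 3-day ethanol and 1.68% at 10-day ethanol. With at most 5% mitochondrial UMIs it was 1.93% in chow, 3.04% at 3-day ethanol and 3.96% at 10-day ethanol, which turns the order of the ethanol libraries round. Median-of-ratios scaling gave 150 higher and 131 lower genes at 3-day ethanol over chow, against 123 and 172, and totals without mitochondrial, ribosomal, haemoglobin and hepatocyte genes gave 132 and 126 at 10-day ethanol over chow, against 111 and 155. Both turned round which direction had more genes. Leaving out barcodes with other RNA, an alternative added after seeing the data, gave 103 lower genes at 10-day ethanol over chow. The further alternatives added then, without the deepest barcode of each library and without the barcode found in 2 libraries, moved no count past 1.5 times. With barcodes thinned to 1000 UMIs, 66 genes were higher at 3-day ethanol, and 61 were higher and 91 lower at 10-day ethanol, from fewer UMIs. With no minimum level, 186 were higher and 286 lower at 3-day ethanol, and 168 higher and 254 lower at 10-day ethanol, from more genes compared. The 50 log2 ratios of the 44 genes named by rank kept their sign under all 14 alternatives. These ratios were picked as the largest of the same data, which favours a kept sign. A change of the CPM added or of the minimum level cannot alter a sign. Ecm1 at 3-day ethanol stayed past 1.5-fold in 11 of the 14 alternatives and Ppt1 at 10-day ethanol in 13. Genes with under 10 UMIs in chow have ratios with wide intervals, and a difference between single mice cannot be told apart from one between diets.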
